A study of Mus musculus with 8 samples.

Results

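The genes described here are 8 nuclear receptors of mouse embryonic stem cells (ESCs), the 3 COUP-TF genes Nr2f1, Nr2f2 and Nr2f6 and the receptors Nr0b1, Nr5a2, Nr6a1, Rxra and Esrra. They were chosen by symbol from 55335 genes in the count table, with earlier results of these libraries known, and all 8 were found by their Ensembl identifiers. The list holds 8 of the 49 mouse nuclear receptor genes, and the other 41 were used for comparison. RNA-seq of poly(A) RNA was performed in E14 ESCs, a line of mouse ESCs, infected with a lentivirus carrying a control shRNA (labelled NG, negative control), shRNAs against Sox2 (Sox2-KD), shRNAs against Hnrnpk (hnRNPK-KD) or shRNAs against Cdk9 (Cdk9-KD). Each of the 4 groups holds 2 libraries, which the study calls biological duplicates, so that 8 libraries were available. All of them come from the same cell line, all went through lentiviral infection, and which shRNA of a gene each library received is not given in the sources used here. The study addressed how SOX2 and hnRNPK act together in ESCs, with CDK9 as a further factor.

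Nuclear receptors are transcription factors that bind DNA through 2 zinc fingers, and many of them are switched by a small lipophilic ligand bound in a separate domain. A stretch at the base of the first finger, called the P-box, reads the DNA half-site AGGTCA or a close relative of it. COUP-TFs are orphan receptors of mesenchyme, vessels and the nervous system and act mostly as repressors, and NR2F2 is also known from trophoblast. In ESCs, NR5A2 (LRH-1) activates Pou5f1, NR0B1 (DAX1) is an atypical receptor without the DNA-binding fingers that interacts with OCT4 and NR5A2, and NR6A1 (GCNF) represses Pou5f1 when ESCs differentiate. RXRA is the shared heterodimer partner of retinoic acid, thyroid hormone, vitamin D and fatty acid receptors, and ESRRA is an orphan receptor that drives genes of mitochondrial metabolism.

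The coding sequences of the first zinc finger show how the members relate to each other, since the finger is the part that selects the DNA half-site. They were read from the longest open reading frame among protein-coding transcripts of GENCODE vM21 (build GRCm38) and run from the codon of the first cysteine into the P-box. Their last 15 bases, in capitals, hold most of the P-box but not its last codon. Each sequence covers 66 bases, 5′ to 3′ on the coding strand.
Nr2f1: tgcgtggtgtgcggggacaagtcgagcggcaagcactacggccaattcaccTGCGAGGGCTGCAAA
Nr2f2: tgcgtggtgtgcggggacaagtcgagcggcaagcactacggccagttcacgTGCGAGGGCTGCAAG
Nr2f6: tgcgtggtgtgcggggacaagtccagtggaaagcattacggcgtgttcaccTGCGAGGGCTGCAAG
Nr5a2: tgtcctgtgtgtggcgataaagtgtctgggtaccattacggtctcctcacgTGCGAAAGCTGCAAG
Nr6a1: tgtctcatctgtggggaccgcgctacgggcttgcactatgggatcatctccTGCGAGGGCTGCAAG
Rxra: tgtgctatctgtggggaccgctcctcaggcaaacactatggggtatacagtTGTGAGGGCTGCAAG
Esrra: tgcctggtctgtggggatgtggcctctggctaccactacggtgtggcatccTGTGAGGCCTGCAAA

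The COUP-TF fingers were nearly the same. Nr2f1 and Nr2f2 shared 63 of the 66 bases (95.5%), Nr2f2 and Nr2f6 shared 59 (89.4%) and Nr2f1 and Nr2f6 shared 58 (87.9%). The other pairs shared between 59.1% (Nr5a2 and Rxra) and 72.7% (Nr6a1 and Rxra). The 15 bases in capitals were identical in Nr2f2, Nr2f6 and Nr6a1, whereas those of Nr5a2 and Esrra differed from each other at 5 positions. The last codon of the P-box was not compared. These counts are of bases and include those that leave the encoded amino acid unchanged. Nr2f1 and Rxra each differed from Nr2f2 at 1 base in capitals, and neither base changed the amino acid. The finger pattern had no match in the reading frame of Nr0b1. The finger lies at chr13:78198262-78198327 in exon 1 of Nr2f1, at chr7:70360030-70360095 in exon 1 of Nr2f2 and at chr8:71381038-71381103 in exon 1 of Nr2f6, all on the − strand. It lies at chr1:136944959-136945024 in exon 4 of Nr5a2, at chr2:38760329-38760394 in exon 5 of Nr6a1 and at chr19:6920088-6920153 in exon 2 of Esrra, again on the − strand. In Rxra it is split over exons 3 and 4, between positions 27741176 and 27741801 of chromosome 2 on the + strand. How reads shared between near-identical copies were counted is not stated, and Nr2f1 stayed at 0 and 3 counts in the libraries where Nr2f2 reached 168 and 138.

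The libraries held between 16709201 and 17719366 counts. Of all genes, 16504 passed a filter on low counts and entered edgeR's quasi-likelihood test, and a gene was called when its Benjamini-Hochberg adjusted p was under 0.05 and its absolute log2 fold change (log2FC) over 0.6. Levels are TMM-normalised CPM, that is counts scaled to a common library size, and are divided by exon length in kilobases where genes are compared with each other. With 2 libraries a group, errors are the SD over 2 values or the standard error (SE) of a fit over all 8 libraries. Sox2 was at 412 and 530 CPM in control and at 320 and 284 CPM in Sox2-KD E14 ESCs. The log2FC of Sox2 was -0.64 (SE 0.16, adjusted p = 0.0479), a call lost in most of the alternatives given at the end. Cdk9 was at 109 and 129 CPM in control and at 73.1 and 53.2 CPM in Cdk9-KD E14 ESCs. The log2FC of Cdk9 was -0.91 (SE 0.18, adjusted p = 0.0985), so that Cdk9 was not called. Hnrnpk was at 1094 and 1131 CPM in control and at 697 and 1144 CPM in the libraries labelled hnRNPK-KD, so that replicate 2 did not lie below control and every direction given for that group is one of the label. The 8 ESC markers listed (Pou5f1, Nanog and others) summed to between 4835 and 6485 CPM in each library, with none of them at 0 in any group.

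In control E14 ESCs, Nr0b1 was the most abundant of the 8 receptors and the COUP-TF genes Nr2f1 and Nr2f2 were the least. Per kilobase of exon, Nr0b1 was at 42.4 ± 7.48 CPM per kb (SD, n = 2) and Nr5a2 at 16.6 ± 3.07 CPM per kb. Rxra followed at 5.92 ± 0.410, Nr6a1 at 5.84 ± 1.91 and Esrra at 4.66 ± 0.221 CPM per kb. Nr6a1, with 4.49 and 7.19 CPM per kb, spanned both control values of Rxra and of Esrra, so that the order of Nr6a1 among these neighbours lay within the spread, while the values of Rxra and Esrra did not overlap. Nr2f6, the COUP-TF gene expressed in ESCs, was at 2.80 ± 0.0198 CPM per kb. Nr2f1 at 0.0724 ± 0.00700 and Nr2f2 at 0.0660 ± 0.0194 CPM per kb could not be ordered, and both rested on 6 to 12 counts a library. Among the 49 receptor genes, only Esrrb, an ESC factor related to ESRRA, was more abundant in control than Nr0b1, at 134 ± 2.59 CPM per kb. Nr0b1 ranked 2 and Nr5a2 ranked 3 of 49, Rxra, Nr6a1 and Esrra ranked 8, 9 and 12, Nr2f6 ranked 17, and Nr2f1 and Nr2f2 ranked 31 and 33.

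**Figure D1:**
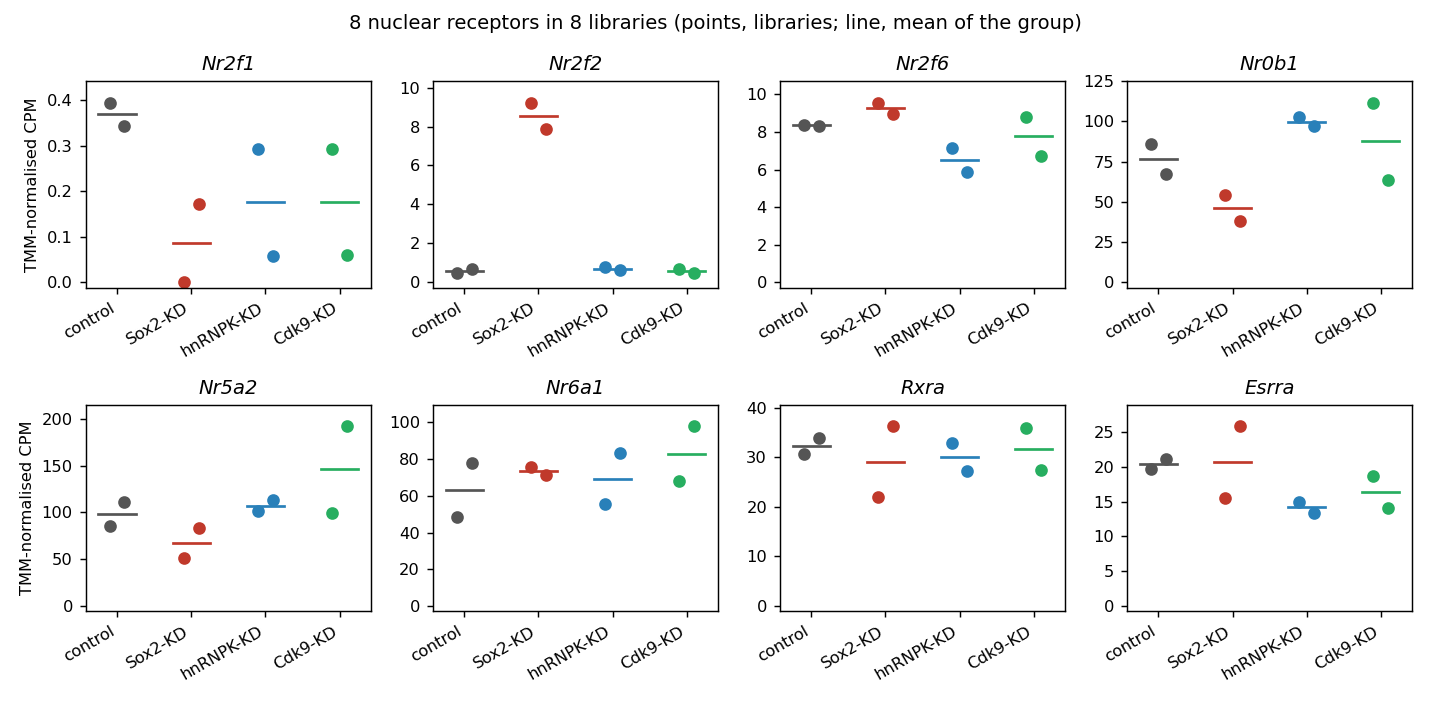
TMM-normalised CPM (vertical axes, linear) of the 8 nuclear receptors in the 8 libraries, by group (horizontal axes); points are libraries, lines are the means of 2 libraries, and hnRNPK-KD is the group as labelled. Nr2f2 stands at 9.23 and 7.88 CPM in both libraries of Sox2-KD and no higher than 0.762 CPM elsewhere.

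Nr2f2 (chr7:70351944-70366735, − strand) was the member that stood apart in Sox2-KD E14 ESCs. It had 8 and 12 counts in control, 168 and 138 in Sox2-KD and 12 and 8 in Cdk9-KD, and the libraries labelled hnRNPK-KD had 13 and 11. Both Sox2-KD libraries thus lay above the other 6, which overlapped with each other. In CPM, the level was 0.569 ± 0.168 (SD, n = 2) in control and 8.55 ± 0.959 (SD, n = 2) in Sox2-KD. The log2FC of Sox2-KD against control was 3.89 with an SE of 0.40, that is 14.9-fold, and it lay between 3.61 and 4.22 when each library was left out in turn. Since the members were picked with results of the Sox2-KD libraries known, no test is given for any of them where these libraries enter. Of the 7 members that passed the filter, Nr2f2 alone met both thresholds in Sox2-KD against control, where 4.32% of all genes tested did, and nothing is read from that count. Against Cdk9-KD the log2FC of Sox2-KD was 3.85 (SE 0.40), and against the libraries labelled hnRNPK-KD it was 3.60 (SE 0.40), with the same Sox2-KD libraries in all 3 comparisons. Even at that level Nr2f2 remained a gene of low abundance, with 0.992 ± 0.111 CPM per kb in Sox2-KD beside 3.10 ± 0.143 CPM per kb of Nr2f6. The gene B130024G19Rik, which overlaps exons of Nr2f2 on the opposite strand, had 2 and 1 counts in the Sox2-KD libraries and 0 in all others. In bulk RNA, more cells with Nr2f2 and more Nr2f2 RNA per cell cannot be told apart, and the same holds for every level given here.

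Nr2f1 (chr13:78188973-78199757, − strand), the closest paralog of Nr2f2, did not share this pattern. Its counts were 7 and 6 in control, 0 and 3 in Sox2-KD and 5 and 1 in Cdk9-KD, and the libraries labelled hnRNPK-KD had 5 and 1, and it was the member that failed the filter on low counts. Control was the highest group and all other libraries lay below it. The summed counts of 3 in Sox2-KD and 13 in control gave a ratio of 0.227, for which no interval is given because the Sox2-KD libraries enter. For Cdk9-KD and for the libraries labelled hnRNPK-KD, 6 counts each gave ratios of 0.478 (0.149 to 1.35) and 0.475 (0.148 to 1.34). At this depth, no library held more than 7 counts of Nr2f1, and a change between groups at such a level was not tested. Nr2f6 (chr8:71374123-71381960, − strand), which represses transcription in lymphocytes and other cells, was the evenly expressed COUP-TF gene. It had 149 and 145 counts in control, 174 and 157 in Sox2-KD and 151 and 114 in Cdk9-KD, and the libraries labelled hnRNPK-KD had 122 and 101. The Sox2-KD libraries were the highest by a small margin, at a log2FC of 0.15 (SE 0.25) against control, less than its standard error. Nr2f6 shares exon bases with Ocel1 on the opposite strand, which had 117 to 161 counts a library, and since the strand setting of the counting is not stated, reads of these 2 genes may not have been kept apart.

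In TMM-normalised CPM, Nr0b1 and Nr5a2, the pair known from the ESC network, were lower in both Sox2-KD libraries than in any other library. Nr0b1 (chrX:86191764-86195947, + strand) had 1531 and 1171 counts in control, 991 and 669 in Sox2-KD and 1912 and 1079 in Cdk9-KD, and the libraries labelled hnRNPK-KD had 1748 and 1669. Its level was 76.6 ± 13.5 CPM (SD, n = 2) in control and 46.3 ± 11.5 CPM in Sox2-KD, a log2FC of -0.73 (SE 0.26). The log2FC was -0.92 (SE 0.26) against Cdk9-KD and -1.11 (SE 0.26) against the libraries labelled hnRNPK-KD. Nr5a2 (chr1:136842571-136960448, − strand) had 1516 and 1938 counts in control, 926 and 1456 in Sox2-KD and 1711 and 3250 in Cdk9-KD, and the libraries labelled hnRNPK-KD had 1726 and 1946. The higher Sox2-KD library (replicate 2) and the lower control library (replicate 1) were close, at 83.1 and 85.4 CPM. Scaled by library totals in place of TMM, the order of these libraries was reversed, so that Sox2-KD and control overlapped for Nr5a2. The log2FC of Nr5a2 was -0.55 (SE 0.30) against control, -1.12 (SE 0.30) against Cdk9-KD and -0.68 (SE 0.30) against the libraries labelled hnRNPK-KD. Leaving out single libraries moved these values widely, from -0.24 (without Sox2-KD replicate 1) to -0.95 (without Sox2-KD replicate 2) for Nr5a2 and from -0.49 (without Sox2-KD replicate 2) to -1.01 (without Sox2-KD replicate 1) for Nr0b1 against control. Against Cdk9-KD, Nr0b1 ran from -0.43 (without Cdk9-KD replicate 1) to -1.27 (without Cdk9-KD replicate 2), and Nr5a2 from -0.58 (without Cdk9-KD replicate 2) to -1.52 (without Sox2-KD replicate 2). Against the libraries labelled hnRNPK-KD, Nr0b1 ran from -0.87 to -1.39 and Nr5a2 from -0.37 to -1.08, the ends of both ranges without 1 of the Sox2-KD libraries. In every group, not in Sox2-KD alone, the lower value in CPM was that of replicate 2 for Nr0b1 and of replicate 1 for Nr5a2.

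The promoters of these 2 genes each hold a copy of the nuclear receptor half-site. They are shown because both Sox2-KD libraries lay below the control libraries in TMM-normalised CPM, for Nr5a2 by a small margin. Among the tested members this held for these 2 genes only. The share of all genes that separate in this way was not counted, and nothing is read from it. Whether the half-site has a part in these levels was not tested. Nr2f1, which also lay below control but at a few counts, had no AGGTCA in its windows. The sequences are the 250 bases before the RefSeq start (GRCm38.p6), 5′ to 3′ in the direction of the gene, with AGGTCA in capitals, at chrX:86191525-86191774 on the + strand for Nr0b1 and at chr1:136960449-136960698 on the − strand for Nr5a2.
Nr0b1: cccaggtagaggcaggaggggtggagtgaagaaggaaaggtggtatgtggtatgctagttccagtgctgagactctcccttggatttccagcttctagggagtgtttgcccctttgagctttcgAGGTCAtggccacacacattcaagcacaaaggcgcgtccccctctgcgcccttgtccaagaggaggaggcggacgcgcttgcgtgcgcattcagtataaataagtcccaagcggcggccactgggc
Nr5a2: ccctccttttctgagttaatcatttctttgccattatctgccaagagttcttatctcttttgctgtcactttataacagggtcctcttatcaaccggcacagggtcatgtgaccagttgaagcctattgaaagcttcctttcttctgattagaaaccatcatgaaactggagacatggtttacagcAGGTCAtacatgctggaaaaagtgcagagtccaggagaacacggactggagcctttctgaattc

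The half-site begins 126 bases before the start in Nr0b1 and 64 bases before it in Nr5a2. On both strands of windows from 250 bases before to 50 after the start, AGGTCA was found in 4 of the 12 windows of the 8 members, those of Nr0b1 and of 1 start each of Nr5a2, Nr6a1 and Rxra, beside 16.3% of all 32851 windows. The SOX motif CATTGT, found in 12.6% of all windows, the octamer ATGCAAAT (1.74%), the extended half-site TCAAGGTCA (0.423%), which contains AGGTCA, and direct repeats of AGGTCA with 0 or 1 base between them had no match in the members' windows. For Nr2f2 the window belongs to a start 6153 bases upstream of the transcript that codes for the zinc finger, and counts per gene do not separate these starts.

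Nr6a1, Rxra and Esrra differed little between Sox2-KD and control. Nr6a1 (chr2:38723370-38927688, − strand) had 863 and 1359 counts in control, 1382 and 1251 in Sox2-KD and 1168 and 1655 in Cdk9-KD, and the libraries labelled hnRNPK-KD had 948 and 1431. The control libraries differed from each other by more than the Sox2-KD libraries did, and the groups overlapped, at a log2FC of 0.22 (SE 0.26) that moved to -0.092 without control replicate 1 and to 0.60 when control replicate 2 was left out. Rxra (chr2:27676440-27762957, + strand) had 546 and 592 counts in control, 399 and 636 in Sox2-KD and 614 and 464 in Cdk9-KD, and the libraries labelled hnRNPK-KD had 562 and 469. All 4 groups overlapped, and the log2FC of Sox2-KD against control was -0.15 (SE 0.24), with -0.56 without Sox2-KD replicate 2 and 0.17 without Sox2-KD replicate 1. Esrra (chr19:6910977-6921813, − strand) had 351 and 369 counts in control, 282 and 453 in Sox2-KD and 321 and 238 in Cdk9-KD, and the libraries labelled hnRNPK-KD had 256 and 229. The Sox2-KD libraries enclosed the control values, at a log2FC of 0.015 (SE 0.26) that ran from -0.40 to 0.34 without Sox2-KD replicate 2 or 1, while the 4 libraries of Cdk9-KD and of the hnRNPK-KD label lay below both control libraries. Esrra shares exon bases with Trmt112 on the opposite strand, which had 416 to 634 counts a library and cannot be told apart from it if strand was not used.

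**Figure D2:**
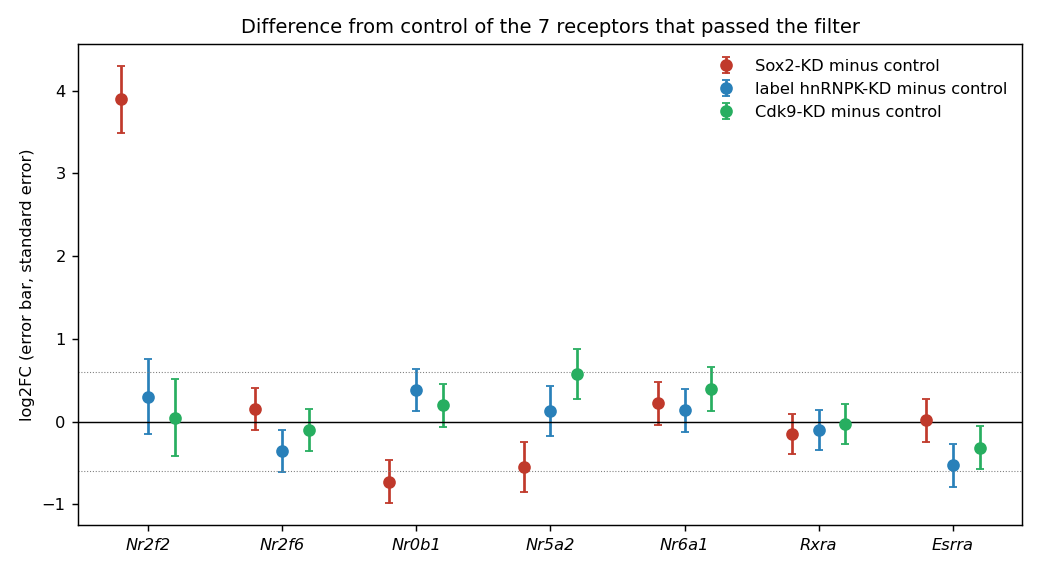
The log2FC against control (vertical axis) of the 7 members that passed the filter (horizontal axis), for Sox2-KD, Cdk9-KD and the libraries labelled hnRNPK-KD; error bars are SE, and dotted lines mark the log2FC threshold of 0.6 in each direction. Nr2f2 in Sox2-KD lies at 3.89, and all values in the other 2 comparisons lie between -0.53 and 0.57.

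In the comparisons without Sox2-KD libraries, which could be tested, none of the 7 members was called by edgeR, and none had an unadjusted p under 0.05 or was called by DESeq2. Both comparisons use the control libraries that Sox2-KD was compared with. In Cdk9-KD against control, where 0.139% of all genes were called, the log2FC of the members ran from -0.32 for Esrra (SE 0.26) to 0.57 for Nr5a2 (SE 0.30), at adjusted p from 0.541 to 0.986. The value of Nr5a2 rested on Cdk9-KD replicate 2, with 3250 counts beside 1711 in replicate 1, and was 0.026 without that library. For the libraries labelled hnRNPK-KD against control, where 0% of all genes were called by edgeR (1325 had an unadjusted p under 0.05, and DESeq2 called 40 higher and 34 lower), the members ran from -0.53 for Esrra (SE 0.26) to 0.38 for Nr0b1 (SE 0.26), with adjusted p between 0.650 and 0.959. Nr2f2 differed from control by 0.047 (SE 0.46, adjusted p = 0.986) in Cdk9-KD, and the libraries labelled hnRNPK-KD differed by 0.30 (SE 0.45, adjusted p = 0.936). With at most 13 counts of Nr2f2 in each of these libraries, a change near the threshold was not detectable at this depth.

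Of the 41 other nuclear receptors, 25 passed the filter and 1 was called in Sox2-KD against control, beside the 4.32% of all genes. This was Rarb, the retinoic acid receptor beta gene and itself a target of retinoic acid. Rarb had 6 and 2 counts in control, 47 and 61 in Sox2-KD and 13 and 7 in Cdk9-KD, and the libraries labelled hnRNPK-KD had 13 and 21. Control was its lowest group, all others lay above it, and the Sox2-KD libraries were the highest. Its log2FC was 3.70 (SE 0.59, adjusted p = 0.00879), but the call was lost without control replicate 2 (adjusted p = 0.0836) and without Sox2-KD replicate 2 (adjusted p = 0.0568). At an unadjusted p under 0.05 there were 4 further genes, namely Thrb, Ppara, Nr3c2 and Nr4a1, all of them higher in Sox2-KD. Of all 16504 genes tested, 3182 were under that p, a share near that of the 25 receptors, and nothing is read from these genes. The median log2FC of the 25 was 0.29, beside 0.021 for all genes tested. It was nearly the same in Cdk9-KD against the same control libraries, at 0.26 beside 0.019. For the hnRNPK-KD label it was 0.084 beside 0.018. The 3 most abundant other receptors were not called in Sox2-KD against control. Their log2FC was -0.20 (SE 0.16) for Esrrb, 0.11 (SE 0.22) for Nr1h2, an oxysterol receptor, and -0.10 (SE 0.22) for Rarg. Against Cdk9-KD, Rarb (log2FC 2.35, SE 0.52, adjusted p = 0.0210) and Thrb (2.24, SE 0.58, adjusted p = 0.0431), a thyroid hormone receptor named after its values were seen, were called in Sox2-KD, beside 7.33% of all genes. Rarb lost this call without Cdk9-KD replicate 2 (adjusted p = 0.126) or Sox2-KD replicate 2 (adjusted p = 0.138), and Thrb lost it without any 1 of the 6 control, Cdk9-KD and Sox2-KD libraries, at an adjusted p between 0.0582 and 0.235. Against the libraries labelled hnRNPK-KD none was called by edgeR, beside 5.9% of all genes. There 6 had an unadjusted p under 0.05, beside 3518 of all 16504 genes. DESeq2 called 2 of them, and of all genes 856 higher and 419 lower. Neither tool called any of the 25 against control in Cdk9-KD or for the hnRNPK-KD label. An unadjusted p under 0.05 was found for 0 and 4 of them, beside 1720 and 1325 of all 16504 genes. DESeq2 gave no adjusted p for 4 and 2 of them. Of the 49 receptor genes, 3 (Nr1h5, Hnf4g and Nr2e1) had no count in any library.

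**Figure D3:**
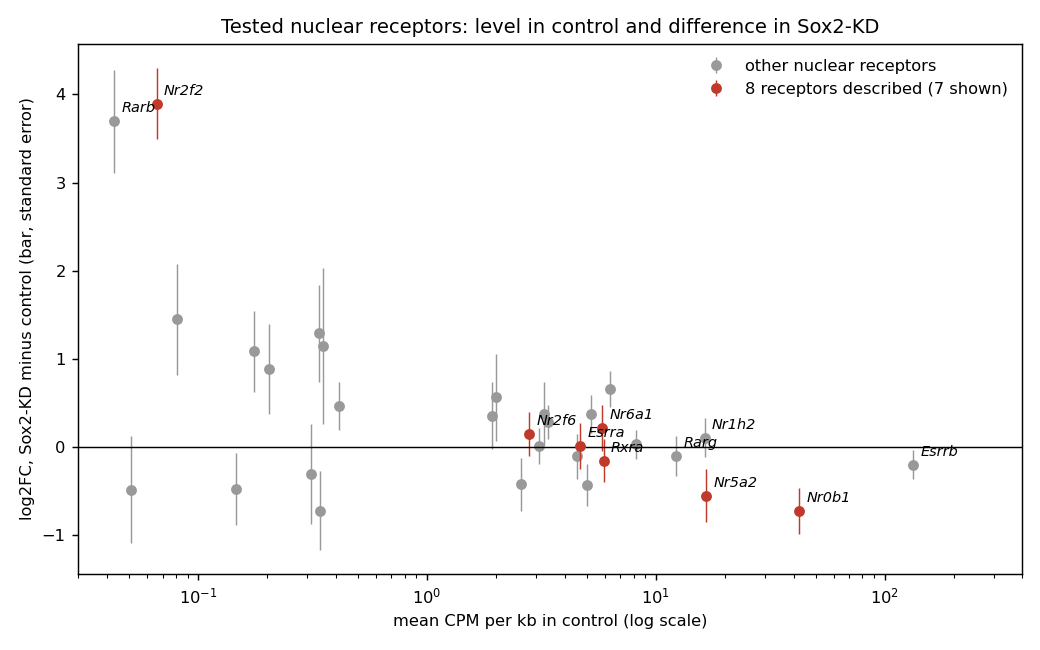
Mean CPM per kb in the 2 control libraries (horizontal axis, logarithmic) and log2FC of Sox2-KD against control (vertical axis; bars, SE) of the 32 nuclear receptors that passed the filter, the described members in red and the others in grey. Nr2f2 and Rarb, at 3.89 and 3.70, lie apart from the rest and are among the least abundant receptors in control, while Nr5a2 and Nr0b1 are the most abundant after Esrrb.

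Of the 40 tested genes outside the receptor family that work with these receptors or are known as their targets, 2 were called in Sox2-KD against control (5%), near the 4.32% of all genes tested. Of the 15 tested corepressors and coactivators, Nrip1, a corepressor of ligand-bound receptors also known as RIP140, rose in Sox2-KD, from 241 and 370 counts to 662 and 734 (log2FC 1.17, SE 0.27, adjusted p = 0.0372). This call was lost without any 1 of the control or Sox2-KD libraries, at an adjusted p between 0.0666 and 0.235. Of the 6 tested COUP-TF target genes, Nrp2, which encodes the VEGF-C and semaphorin receptor neuropilin 2 and is known to be activated by NR2F2 in lymphatic endothelium, fell from 443 and 745 counts to 112 and 75 (log2FC -2.69, SE 0.38, adjusted p = 0.00533), and was not called without Sox2-KD replicate 2 (adjusted p = 0.0568). Its direction was thus opposite to that of Nr2f2. The median log2FC of the 6 targets was 0.028, beside 0.021 for all genes. By edgeR, 2 of the 6 targets, Nrp2 among them, and 4 of the 15 corepressors and coactivators had an unadjusted p under 0.05. None of the 2 tested GCNF targets, the 9 ERR alpha targets or the 12 ESC factors linked to Nr5a2 and Nr0b1 was called in Sox2-KD by edgeR or by DESeq2. An unadjusted p under 0.05 was found for 1, 1 and 3 of them, beside 3182 of all 16504 genes. The median log2FC of the 12 ESC factors was -0.20, beside 0.021 for all genes. Of the 13 tested heterodimer partners of RXR, Rarb alone was called, and their median log2FC was 0.38. That median was 0.22 in Cdk9-KD and -0.12 under the hnRNPK-KD label. In Cdk9-KD, and likewise under the hnRNPK-KD label, none of these 40 genes was called by edgeR, beside 0.139% and 0% of all genes. Of the 40, 9 and 1 had an unadjusted p under 0.05, beside 1720 and 1325 of all 16504 genes. DESeq2 called 1 of the 40, Tbx3 in Cdk9-KD. These lists were drawn up with results of the same libraries known and count as descriptions.

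Some markers of extraembryonic cells were higher in the libraries where Nr2f2 was, while some trophectoderm markers were lower. Of the 33 tested genes of the 6 marker lists, 9 were called in Sox2-KD against control (27.3%), beside 4.32% of all genes. In Cdk9-KD 2 were called (6.06%), beside 0.139%, and none under the hnRNPK-KD label, beside 0%. The marker lists were drawn up with earlier results of these libraries known and count as descriptions, and nothing is read from the contrast with all genes. Of the called markers, Gata6, Gata3 and Lum reached 10 counts in both libraries of a group only in Sox2-KD. They entered the test through the group in which they were high, and their adjusted p is a description as well. The 8 primitive endoderm markers summed to between 4.50 and 5.90 CPM in control, to between 44.1 and 64.2 CPM in Sox2-KD and to at most 6.83 CPM in the other libraries. Most of the Sox2-KD sums was 1 gene, Dab2, an endocytic adaptor, at 35.0 and 54.2 CPM. The other 7 markers summed to 3.83 and 5.04 CPM in control and to 9.07 and 9.99 CPM in Sox2-KD. The median log2FC of the 6 tested markers in Sox2-KD against control was 1.47, beside 0.021 for all genes. Of the 6 tested, Dab2 rose from 12 and 15 counts to 637 and 950 (log2FC 5.85, SE 0.40, adjusted p = 0.000187) and Gata6, the factor that specifies primitive endoderm, from 4 and 5 counts to 49 and 68 (log2FC 3.65, SE 0.62, adjusted p = 0.0111).

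The 8 trophectoderm markers summed to between 89.0 and 101 CPM in control, to between 185 and 317 CPM in Sox2-KD and to between 80.2 and 130 CPM in the other libraries. The keratin genes Krt8 and Krt18 together made up 21.6 and 20.2 CPM in control and 139 and 265 CPM in Sox2-KD. The other 6 markers summed to 67.4 and 81.1 CPM in control and to 46.5 and 52.2 CPM in Sox2-KD, so that the sum without the keratins was lower. That sum was mostly Tfap2c, at 43.4 and 43.0 CPM in control, and Cdx2, at 19.8 and 35.1 CPM. Gata3 and Eomes were at no more than 3.83 CPM in control and weighed little in it. Of the 6 tested, Krt18, Gata3, Krt8 and Eomes rose, the first from 58 and 50 to 754 and 1450 counts. The median log2FC of the 6 in Sox2-KD against control was 2.23, beside 0.021 for all genes. Cdx2, the defining trophectoderm factor, was lower, at 111 and 109 counts beside 351 and 613, and was not called (adjusted p = 0.0521), and Tfap2c, named after its values were seen, had 523 and 570 counts beside 771 and 751 (log2FC -0.50, SE 0.29, adjusted p = 0.398). Eomes was called in Cdk9-KD as well. It had 68 and 45 counts in control, 163 and 162 in Sox2-KD (log2FC 1.5, SE 0.28, adjusted p = 0.0166) and 333 and 241 in Cdk9-KD (log2FC 2.39, SE 0.28, adjusted p = 0.0191), and the libraries labelled hnRNPK-KD had 138 and 136, while Nr2f2 stayed at 8 to 13 counts in the latter 2 groups. Tfap2c was called lower in Cdk9-KD, at 225 and 132 counts (log2FC -2.04, SE 0.31, adjusted p = 0.0416). In Cdk9-KD, the call of Eomes was lost without either control library or Cdk9-KD replicate 2 (adjusted p up to 0.198), and that of Tfap2c without any 1 of the control or Sox2-KD libraries or Cdk9-KD replicate 2 (up to 0.220). None of the markers of either list was at 0 in both Sox2-KD libraries, and Sox7 was at 0 in both control libraries.

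Of the 8 ESC markers, Utf1 rose (log2FC 0.80, SE 0.18, adjusted p = 0.0328) and the others were not called. Control was the lowest group of Utf1, at 458 and 539 counts beside 919 and 842 in Sox2-KD and 982 and 750 in Cdk9-KD. The libraries labelled hnRNPK-KD had 706 and 770. Against control its log2FC was 0.84 in Cdk9-KD (adjusted p = 0.137 by edgeR), where DESeq2 called it. For the hnRNPK-KD label it was 0.61 (adjusted p = 0.457 by edgeR). Neural progenitor markers summed to between 28.3 and 43.1 CPM in Sox2-KD and to between 37.9 and 41.2 CPM in control, with Sox1, a neural plate factor, lower at 10 and 9 counts beside 100 and 52 (log2FC -3.00, SE 0.50, adjusted p = 0.0102). Mesoderm and primitive streak markers summed to between 22.3 and 26.7 CPM in Sox2-KD beside 18.9 and 35.2 CPM in control, and Eomes, which this list shares, was the member called. Fibroblast and mesenchyme markers, a cell type in which NR2F2 is abundant, summed to between 18.1 and 18.4 CPM in Sox2-KD beside 16.04 and 18.6 CPM in control, and edgeR called Lum there at 23 and 13 counts beside 0 and 1. DESeq2 gave Lum no adjusted p and called another fibroblast marker, Col1a2, at 4 and 1 counts beside 32 and 24 (log2FC -3.52, SE 1.15, adjusted p = 0.0355), for which edgeR gave an adjusted p of 0.0565. The calls of Dab2, Krt8 and Krt18 held without any 1 library. Those of Eomes (adjusted p up to 0.136), Utf1 (up to 0.225) and Lum (up to 0.171) were lost without any 1 of the 4 control and Sox2-KD libraries, those of Gata6 (up to 0.0961) and Gata3 (up to 0.102) without either control library or Sox2-KD replicate 2, and that of Sox1 (up to 0.0849) without control replicate 1 or either Sox2-KD library. The part of these cell types in the level of Nr2f2 was not tested.

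The genes whose pattern over the 8 libraries was most like that of Nr2f2 were Dab2, Slc40a1, Rhof, Slc25a24 and Patj. Pearson's r of the log2 CPM with Nr2f2 was 0.98 for the first 3 and 0.97 for the last 2, out of 12518 genes compared, of which 202 had an r over 0.9. The libraries form 2 clusters here, the 2 of Sox2-KD and the other 6, so that r mostly records the difference between them and is given as a description. Slc40a1, which encodes the iron exporter ferroportin, had 15 and 19 counts in control and 217 and 202 in Sox2-KD. Slc25a24, a mitochondrial ATP-magnesium and phosphate carrier, had 48 and 48 counts in control and 192 and 221 in Sox2-KD. Rhof had 35 and 42 counts in control and 117 and 91 in Sox2-KD, and Patj, a scaffold of tight junctions, had 71 and 78 in control and 279 and 405 in Sox2-KD. Nr2f1 was not compared in this way because it did not pass the filter.

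**Figure D4:**
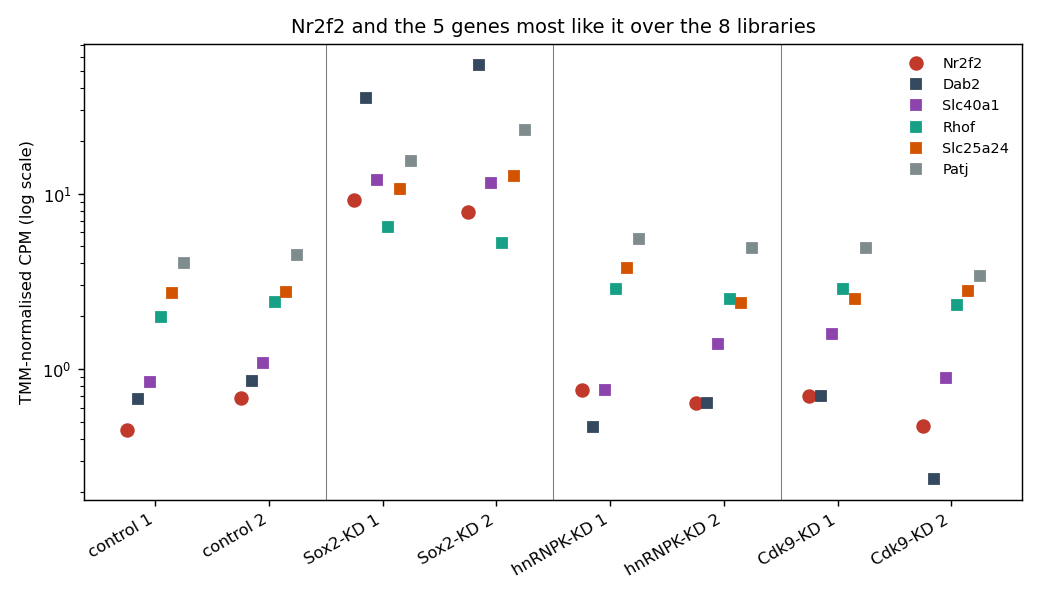
TMM-normalised CPM (vertical axis, logarithmic) of Nr2f2 (circles) and the 5 genes most like it (squares) in each of the 8 libraries (horizontal axis). All 6 genes are highest in the 2 Sox2-KD libraries, and among the other 6 libraries Nr2f2 stays between 0.450 and 0.762 CPM.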

How the data were processed

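RNA-seq was measured in 8 libraries of E14 ESCs, 2 in each of 4 groups taken from the sample labels. The authors trimmed read pairs with Trimmomatic and aligned them to GENCODE vM23 (mm10), and the deposited file holds raw read counts per gene, not normalised. The submitters' processing notes name STAR 2.7.9a and featureCounts 2.0.1, and the strand setting is not given in the sources used here. Counting error alone underlies the intervals of Nr2f1.

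Low genes were removed by filterByExpr at a minimum count of 10 and a total of 15 (16504 of 55335 genes remained), and the rest were TMM-normalised and fitted with edgeR 4.0.16 in R 4.3.3 with 1 term for the group, all 8 libraries together. Library totals were 16709201 to 17719366 and the biological coefficient of variation was 0.186. Replicates differed by more than counting noise. The study calls them biological duplicates without naming separate cultures, so that p-values measure the spread between these libraries. In simulated counts for Sox2-KD against control (16504 genes, 200 changed), the test recovered 80% with 18 false calls among 178.

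The members and the gene lists were chosen with earlier results of these data known. Named are the 8 members, other receptors called against control or among the 3 most abundant in control, up to 4 called genes of each further list by size of log2FC in Sox2-KD, the 5 tested genes (average log2 CPM over 1) most correlated with Nr2f2, and the targeted genes. Exon lengths and positions are from GENCODE vM21, with identifiers matched without version, and promoters from RefSeq, which held all 8 members. Protein sequences were not used here. Alternatives were DESeq2 1.42.0, median-ratio size factors, library totals, no filter, only the 4 libraries compared, the replicate number as a block, and leaving out each library. For genes and lists other than the receptors these were added after seeing the data. Figures used matplotlib 3.10.9.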

Additional observations from a re-analysis of the deposited data

How the results depend on the processing

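The log2FC of Nr2f2 in Sox2-KD against control lay between 3.61 and 4.22 under the 14 alternatives. Counts of members past both thresholds in comparisons with Sox2-KD describe genes picked with these libraries known and test nothing. Against Cdk9-KD they numbered 2, 3 with DESeq2, and 1 with library totals or with only the 4 libraries compared. When single libraries were left out they numbered between 1 and 2, as they did in Sox2-KD against the libraries labelled hnRNPK-KD (2 with all libraries). With the replicate number as a block, 1 other receptor was called in Sox2-KD against Cdk9-KD in place of 2 (3 with DESeq2) and the members past both thresholds there were 3, while the other 8 counts of receptors did not change. Deviations of libraries with the same number correlated between -0.22 and 0.21 over all genes tested. A value over all genes cannot decide whether the numbers pair the samples. Replicate 1 lay above replicate 2 in every group for Nr0b1, and below it in every group for Nr5a2. With the block, the log2FC of Sox2-KD against control was -0.74 (SE 0.18) for Nr0b1 and -0.58 (SE 0.19) for Nr5a2. The other receptors called in Sox2-KD against the libraries labelled hnRNPK-KD were 0, 2 with DESeq2 and 1 with median-ratio size factors or with library totals. With single libraries left out, the other receptors called ran from 0 to 1 in Sox2-KD against control, from 0 to 3 against Cdk9-KD and from 0 to 1 against the libraries labelled hnRNPK-KD. Against control, neither Cdk9-KD nor the hnRNPK-KD label gave a called receptor under any alternative. In these comparisons 10 of 196 values of members changed sign, always with a library left out and never past the threshold. These ran from -0.30 to 0.35 for Nr2f2, from -0.34 to 0.079 for Nr2f6, from -0.30 to 0.54 for Nr0b1 and from -0.27 to 0.15 for Rxra in Cdk9-KD, and from -0.075 to 0.31 for Nr5a2 and from -0.21 to 0.50 for Nr6a1 in the libraries labelled hnRNPK-KD. Where a library was left out, the lone library of its group was assumed to vary like the other groups. For these changes the cause was not tested. Between the alternative scalings, the median log2FC of all genes in Sox2-KD against control lay between 0.015 and 0.090. Of 195 alternatives for the genes of the other lists and for Sox2, 46 lost a call and none changed direction. Nrip1 and Utf1 lost theirs without the filter (adjusted p = 0.0512 and 0.0695). The knockdown of Sox2 itself lost its call in 10 of 14 alternatives. A few counts a library limit what can be said of Nr2f1 and of Nr2f2 outside Sox2-KD.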
